A study of Mus musculus with 6 samples.

Results

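The genes described here encode axon guidance ligands and receptors in cultured mouse mesenchymal stem cells (MSCs, adherent stromal cells of the bone marrow that can form bone, fat and cartilage cells). They were chosen by name among protein-coding genes, as the semaphorins (19 genes), plexins (8), neuropilins (2), ephrins (8), Eph receptors (9), netrins (3), Unc5 receptors (3), Slits (3) and Robos (3). These are 58 of the 15634 genes listed for each library, and all 58 were tested. Every listed gene has at least 10 counts in at least 3 libraries, so a gene without a row may still have had reads. The RefSeq annotation used here holds 68 protein-coding genes with such names, and the other 10 (Sema5b, Plxnb3, Epha5, Epha6, Epha8, Epha10, Ephb1, Robo4, Ntn5 and Unc5d) were not analysed here.

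The TNF group held 3 libraries of MSCs from wild-type C57BL/6J mice that were given TNF-α, an inflammatory cytokine, at 10 ng/mL for 24 h. The Control group held 3 libraries of MSCs from the same strain and genotype without stimulation, labelled with the same 24 h. Cells of both groups were grown in α-MEM with serum and antibiotics, and total RNA was sequenced. Whether replicates came from separate animals or cultures is not stated, so the p-values speak of the spread among these 6 libraries alone, and that spread may be technical. Counts per gene were fitted with edgeR's quasi-likelihood test over all genes, and a gene was called at a Benjamini-Hochberg adjusted p under 0.05. Values in a library are given as CPM (counts scaled to 1000000 reads, with TMM factors), and levels of different genes are compared as TPM (which also corrects for transcript length).

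Total counts ran from 45629973 to 55149746 in TNF libraries and from 54141846 to 77142418 in Control libraries. TNF library 2 stood apart by its 18S ribosomal RNA, at 19.4% of its counts, where no other library exceeded 3.55%. All 10 stromal markers had reads, with summed levels of 11080 to 11670 CPM in TNF and 18090 to 22880 CPM in Control libraries. That sum was mostly Col1a1 (3938 CPM in TNF, 8205 CPM in Control) and Col1a2 (5865 CPM in TNF, 9647 CPM in Control), which with Thy1 were called lower, while Lepr and Pdgfra were called higher and the other 5 were not called. All 15 macrophage markers had reads too, with sums of 2164 to 2280 CPM in TNF and 2252 to 3399 CPM in Control. The largest part was Lyz2 (925 CPM in TNF, 1334 CPM in Control), which was not called. Of the 15, 3 were called higher (Cd14, Csf1r and Cybb) and 6 lower (C1qa, C1qb, C1qc, Cd68, Cx3cr1 and Mrc1), where 16% and 16.4% of all genes tested were. Of 10 endothelial markers 4 were listed, with sums of 1.59 to 2.12 CPM in TNF and 2.36 to 2.74 CPM in Control. Pecam1, Cdh5, Tek, Tie1, Emcn and Cldn5, which define that cell type, had no row. Of 8 neuronal markers 3 were listed (16.5 to 18.7 CPM in TNF, 11.9 to 13.3 CPM in Control, mostly Tubb3), of 7 glial markers 4 (6.23 to 7.23 CPM in TNF, 7.64 to 7.98 CPM in Control), and of 5 lymphoid markers 0. In bulk RNA, fewer cells of a type and less RNA per cell cannot be told apart.

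Axon guidance molecules were named for steering growing nerve fibres, and the same proteins act between cells in blood vessels, bone and the immune system. Semaphorins signal through plexins, with neuropilins as co-receptors for most of the secreted class. Ephrins are themselves bound to the membrane and signal through Eph receptor tyrosine kinases at cell contacts, netrins signal through Dcc, neogenin and Unc5 receptors, and Slits through Robos. In bone, semaphorin 3A, semaphorin 4D and the pair of ephrin-B2 and EphB4 are known as signals between osteoblasts and osteoclasts.

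In TNF libraries 13 of the 58 genes rose and 20 fell, while 25 were not called. Among all 15547 genes tested, 16% were called higher and 16.4% lower, against 22.4% and 34.5% of the axon guidance genes. Called changes of at least 2-fold were found for 11 of the 58 genes, or 19%, against 11% of all genes tested. Rises of this size were called for 4 of the 58 genes, a share near the 5.81% of all genes. Falls of this size were called for 7 of the 58 genes, against 5.22% of all genes. The rises were those of Sema4a, Robo2, Ntn1 and Plxnd1. The falls were those of Epha1, Sema3d, Epha3, Plxnc1, Sema3e, Ephb3 and Sema3a. Epha1 reached the listing bar of 10 counts in 3 libraries through Control, since TNF libraries 1 and 2 held fewer. The 3 values of TNF lay wholly above or below those of Control for 39 genes (67.2%, against 48.7% of all genes tested). The median log2 fold change was -0.13 over the 58 genes and -0.0046 over all genes. By mean TPM over the 6 libraries the most abundant were Nrp2 (254 TPM), Plxnb2 (182), Nrp1 (123), Sema3c (77.5) and Plxna1 (67.0), and the least abundant Sema6a (0.165) and Efnb3 (0.153). Abundance and spread were close to those of other genes, with a median of 15.5 CPM for the 58 genes and 18.6 CPM for all genes, and a median SD of log2 CPM within groups of 0.157 and 0.16. Without TNF library 2, the one rich in 18S reads, 12 genes were called higher and 18 lower, beside 2097 and 2073 of all 15620 genes tested. With library totals in place of TMM factors 10 genes were called higher and 21 lower, beside 1612 and 2571 of all 15547 genes tested. Over all genes 38.5% of the calls were then higher, against 49.4% with TMM factors.

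**Figure D1:**
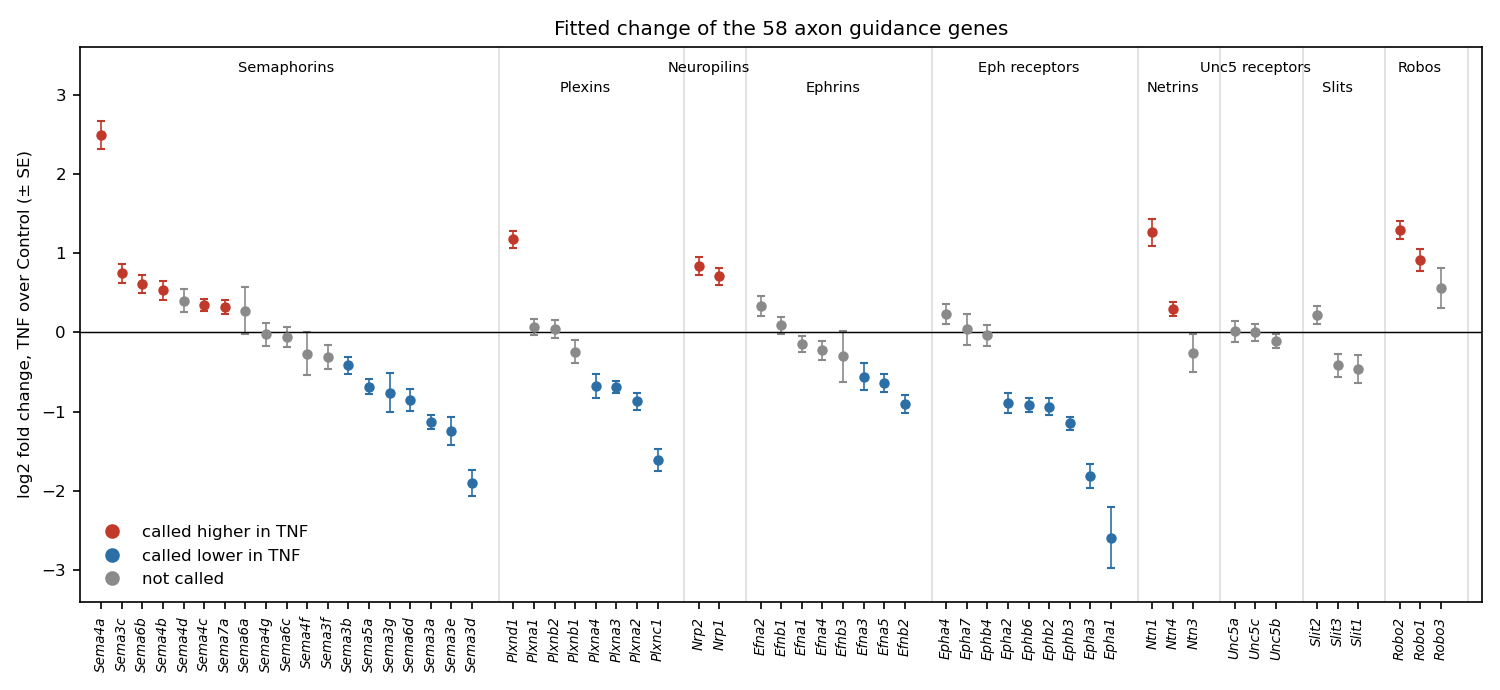
Fitted log2 fold change of TNF over Control (vertical axis, bars ± SE) for the 58 axon guidance genes (horizontal axis), grouped by family and ordered within it. Red marks the 13 genes called higher in TNF, blue the 20 called lower and grey the 25 not called; the Eph receptors show 6 blue points and no red one.

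Of the 33 ligand genes 8 rose (24.2%) and 10 fell (30.3%), and of the 25 receptor genes 5 rose (20%) and 10 fell (40%). Over all genes tested 16% rose and 16.4% fell. The families and classes below hold few genes, and none was tested as a set against these shares. The semaphorins are the largest family. Of their 7 secreted class 3 members, 5 fell (Sema3a, Sema3b, Sema3d, Sema3e and Sema3g), 1 rose (Sema3c) and Sema3f was not called. Of the 6 membrane-bound class 4 members, 3 rose (Sema4a, Sema4b and Sema4c) and 0 fell. Sema5a and Sema6d fell, whereas Sema6b and the GPI-anchored Sema7a rose.

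Sema3c, which acts through neuropilins with plexin-D1 and plexin-A receptors, was the most abundant semaphorin, at a mean of 94.4 ± 4.44 TPM in TNF and 60.5 ± 4.76 TPM in Control (SD, n = 3 each). It had 303, 319 and 309 CPM in the TNF libraries, against 186, 212 and 159 CPM in the Control libraries (log2 fold change 0.74 ± 0.12 SE, adjusted p = 0.00134). All TNF values lay above all Control values. Sema3a, a chemorepellent that binds neuropilin-1 and is known to protect bone, had 36.8, 38.9 and 42.8 CPM in TNF and 86.9, 90.9 and 81.5 CPM in Control (log2 fold change -1.13 ± 0.09 SE, adjusted p = 2.66e-05). The highest TNF library was thus well below the lowest Control library. Sema3d, best known for guiding heart and vessel development, had 3.04, 3.47 and 2.89 CPM in TNF and 11.0, 14.4 and 9.54 CPM in Control (log2 fold change -1.90 ± 0.17 SE, adjusted p = 5.15e-05). Sema3e, which binds plexin-D1 without a neuropilin, had 5.03, 4.78 and 6.61 CPM in TNF and 12.9, 15.7 and 10.4 CPM in Control (log2 fold change -1.24 ± 0.18 SE, adjusted p = 0.000876). Neither gene overlapped between groups, and Control library 2 was the highest of the 6 for both.

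The remaining class 3 genes moved less. Sema3b averaged 15.4 ± 0.486 CPM in TNF and 20.6 ± 2.64 CPM in Control (log2 fold change -0.42 ± 0.11 SE, adjusted p = 0.0177), and leaving out TNF library 1 ended that call (adjusted p = 0.0730). Sema3g averaged 2.46 ± 0.549 CPM in TNF and 4.14 ± 1.15 CPM in Control (log2 fold change -0.76 ± 0.24 SE, adjusted p = 0.0420), a call that was lost without TNF library 1, TNF library 2, TNF library 3, Control library 1 or Control library 2, with adjusted p up to 0.116. Sema3f averaged 5.91 ± 0.387 CPM in TNF and 7.28 ± 1.51 CPM in Control (adjusted p = 0.158).

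The make-up of class 3 transcripts differed between the groups, while their summed TPM overlapped. The 7 genes together had 127, 121 and 130.1 TPM in TNF libraries and 122, 129 and 109.9 TPM in Control libraries, which overlap. Sema3c made up 76.3%, 73.5% and 74.3% of that sum in TNF, against 52.3%, 48.6% and 50.1% in Control. Sema3a made up 10.2%, 10.8% and 11.1% in TNF, against 25.1%, 26.2% and 24.7% in Control. The ratio of Sema3c to Sema3a TPM, chosen for display after the values were seen, was 7.48, 6.81 and 6.71 in TNF and 2.08, 1.85 and 2.03 in Control. A share or ratio within a library does not depend on the scaling between libraries, and it does not show by itself which of its genes changed. The summed TPM does depend on that scaling and carries no TMM factors. Its overlap therefore holds for TPM as deposited only.

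**Figure D2:**
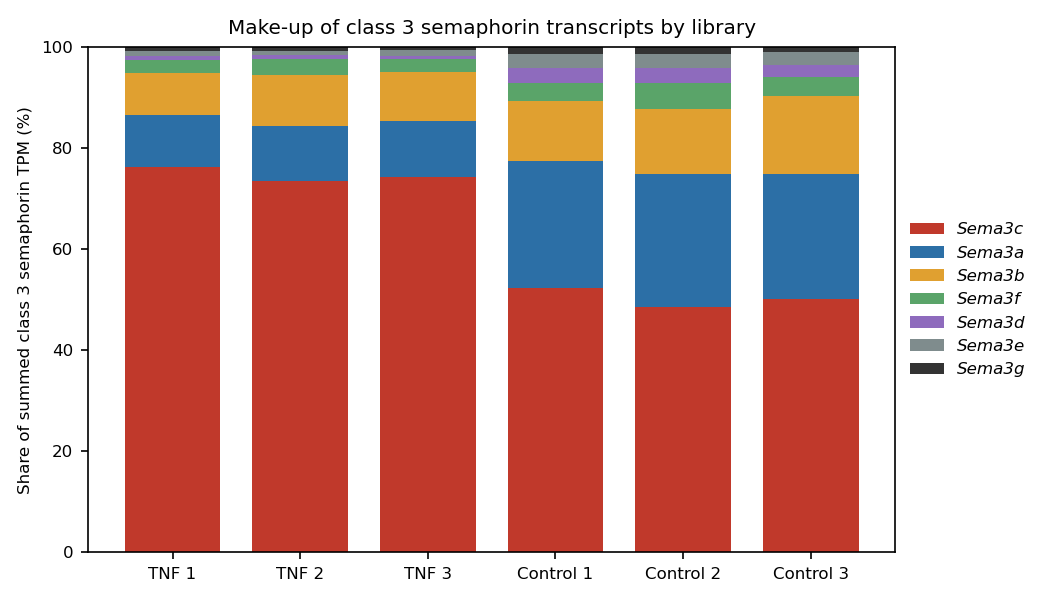
Share of each class 3 semaphorin (colours) in their summed TPM (vertical axis, percent) in each library (horizontal axis, 3 TNF then 3 Control). Sema3c takes 73.5% to 76.3% in TNF libraries and 48.6% to 52.3% in Control libraries, and Sema3a 10.2% to 11.1% in TNF and 24.7% to 26.2% in Control libraries.

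Sema3a, Sema3c, Sema3d and Sema3e lie on mouse chromosome 5, and Sema3d and Sema3a are neighbours with no other protein-coding gene between them in RefSeq. Their promoter windows, taken from RefSeq on GRCm38.p6 as 250 bases before and 50 after a gene's start, differed in base content. The window of Sema3c was 75.7% G or C with 42 CpG dinucleotides, whereas those of Sema3a, Sema3d and Sema3e were 41.3%, 49.7% and 50.7% with 2, 8 and 11. The median was 52.7% and 7 CpG over all 32851 windows in the table, and 64.5% and 19.5 over the 66 windows of the 50 axon guidance genes that have one. The windows of Sema3a (chr5:13396534-13396833, plus strand), which fell, and of Sema3c (chr5:17574566-17574865, plus strand), which rose, are shown for this contrast, with each CpG in capitals.
Sema3a: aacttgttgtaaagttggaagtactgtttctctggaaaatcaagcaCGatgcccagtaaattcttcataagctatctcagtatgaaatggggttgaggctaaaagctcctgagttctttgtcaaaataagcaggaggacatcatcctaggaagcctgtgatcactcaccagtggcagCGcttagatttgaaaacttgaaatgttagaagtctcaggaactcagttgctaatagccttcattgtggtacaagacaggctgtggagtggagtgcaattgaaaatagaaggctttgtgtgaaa
Sema3c: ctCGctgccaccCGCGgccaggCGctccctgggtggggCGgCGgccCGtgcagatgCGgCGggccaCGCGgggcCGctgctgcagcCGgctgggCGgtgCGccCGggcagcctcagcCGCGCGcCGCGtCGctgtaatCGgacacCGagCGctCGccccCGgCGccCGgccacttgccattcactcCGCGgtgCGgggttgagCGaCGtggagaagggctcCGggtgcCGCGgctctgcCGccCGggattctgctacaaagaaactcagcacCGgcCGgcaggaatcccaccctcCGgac
Over all 66 windows the median was 64.7% G or C for the windows of genes called higher, 64.3% for those called lower and 64.3% for those not called. Efnb3, Ntn1, Plxna1, Plxna4, Sema3b, Sema3f, Sema6a and Slit1 had no window in the table.

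Among class 4 semaphorins, which carry a transmembrane domain, Sema4a showed the largest rise of all 58 genes. Sema4a, known for roles in T cell priming and as a ligand of plexin-B and plexin-D receptors, had 4.04, 3.35 and 3.26 CPM in TNF and 0.538, 0.662 and 0.685 CPM in Control (log2 fold change 2.49 ± 0.18 SE, adjusted p = 1.60e-05), which is 5.63-fold. It nevertheless stayed a low transcript, with 131 to 203 counts per TNF library and 32 to 50 per Control library. Sema4b averaged 9.84 ± 1.21 CPM in TNF and 6.80 ± 0.585 CPM in Control (log2 fold change 0.53 ± 0.12 SE, adjusted p = 0.00937). Sema4c, a ligand of plexin-B2, averaged 23.7 ± 1.07 CPM in TNF and 18.6 ± 0.0287 CPM in Control (log2 fold change 0.35 ± 0.08 SE, adjusted p = 0.00995), and its call also ended when TNF library 1 was left out (adjusted p = 0.0525), with library totals (0.181) and with limma on TPM (0.122 to 0.140). Sema4d, the plexin-B1 ligand that osteoclasts use to restrain osteoblasts, had 34.5, 40.0 and 34.6 CPM in TNF and 26.5, 33.7 and 22.4 CPM in Control. Its groups did not overlap, but only just, and it was not called (log2 fold change 0.40 ± 0.15 SE, adjusted p = 0.0665). Without Control library 2, the highest of the 3, it was called (log2 fold change 0.57, adjusted p = 0.00444), as it was with DESeq2 (0.0382). Sema4f averaged 0.689 ± 0.181 CPM in TNF and 0.830 ± 0.131 CPM in Control (adjusted p = 0.479). Sema4g averaged 4.27 ± 0.180 CPM in TNF and 4.34 ± 0.751 CPM in Control (adjusted p = 0.915). Several of these genes are also expressed by myeloid cells. Of the 15 macrophage markers above 3 were called higher and 6 lower, and their part in these results was not tested.

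The 3 class 4 genes that rose each had, in 1 of their promoter windows, a match to the consensus of NF-kB, the transcription factor that TNF receptors activate. That motif was searched on both strands, and 4.50% of all windows hold a match. Sema4a has 4 windows, and Sema4b and Sema4c have 2 each. Of the other class 4 genes, Sema4d has 3 windows and Sema4f and Sema4g 1 each, with 0 matches. The 4.50% is a share of windows, not of genes, and takes no account of base content. The motif is rich in G and C. The median G or C share was 64.5% for windows of axon guidance genes and 52.7% for all windows. The matching windows of Sema4a, Sema4b and Sema4c are shown because these genes were called higher. The match is in capitals, and all 3 windows read along the gene's strand on GRCm38.p6. They lie at chr3:88459052-88459351 (minus strand) for Sema4a, chr7:80186620-80186919 (plus strand) for Sema4b and chr1:36558332-36558631 (minus strand) for Sema4c.
Sema4a: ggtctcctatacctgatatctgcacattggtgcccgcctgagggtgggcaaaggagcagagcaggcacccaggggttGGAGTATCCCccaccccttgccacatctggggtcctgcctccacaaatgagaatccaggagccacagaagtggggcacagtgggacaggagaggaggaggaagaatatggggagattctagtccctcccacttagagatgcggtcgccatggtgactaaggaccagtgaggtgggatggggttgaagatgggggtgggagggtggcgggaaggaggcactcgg
Sema4b: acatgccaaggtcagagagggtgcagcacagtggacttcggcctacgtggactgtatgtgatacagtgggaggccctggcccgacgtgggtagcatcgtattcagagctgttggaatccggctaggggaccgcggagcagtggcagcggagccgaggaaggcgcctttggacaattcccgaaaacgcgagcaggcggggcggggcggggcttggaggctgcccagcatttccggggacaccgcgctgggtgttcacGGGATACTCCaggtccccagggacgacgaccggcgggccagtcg
Sema4c: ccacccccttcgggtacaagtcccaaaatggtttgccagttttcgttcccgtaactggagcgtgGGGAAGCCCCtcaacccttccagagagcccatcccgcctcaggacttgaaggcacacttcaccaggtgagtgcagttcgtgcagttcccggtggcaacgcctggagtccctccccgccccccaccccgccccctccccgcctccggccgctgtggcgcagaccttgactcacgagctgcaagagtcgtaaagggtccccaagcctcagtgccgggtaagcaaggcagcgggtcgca
With the first transcribed base as +1, the match spans bases -173 to -164 in Sema4a, -186 to -177 in Sema4c and 7 to 16 in Sema4b. Sema4a and Sema4b hold the same 10 bases, GGGATACTCC, read on the opposite strand in Sema4a, and 8 of the 32851 windows hold them. This string was counted after it had been seen in both genes. In all, 6 of the 66 windows matched the NF-kB consensus (9.09%, against 4.50% of all windows). Of genes called higher 3 of the 20 windows matched, those of Sema4a, Sema4b and Sema4c. Of genes called lower 1 of 20 windows matched (Ephb2), and of genes not called 2 of 26 (Efna2 and Sema6c). The motif TGANTCA, bound by AP-1, was found in 3 of the 66 windows (4.55%, against 7.81% of all windows), of Sema4c, Sema4d and Sema6b. The core of the interferon-stimulated response element was found in 2 (3.03%, against 3.44%), of Plxnc1 and Sema6b. The TATA box motif TATAAA was found in 2 (3.03%, against 13.6%), of Slit2 and Efnb2. All 3 motifs were thus less frequent in these windows than over all windows. A match of letters is not evidence that a factor binds there.

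Other semaphorins went both ways. Sema5a, a transmembrane protein with thrombospondin repeats, averaged 39.0 ± 0.649 CPM in TNF and 62.6 ± 7.55 CPM in Control (log2 fold change -0.68 ± 0.10 SE, adjusted p = 0.000850). Sema6d, a plexin-A1 ligand, averaged 2.11 ± 0.0288 CPM in TNF and 3.80 ± 0.482 CPM in Control (log2 fold change -0.85 ± 0.14 SE, adjusted p = 0.00198), and Sema6b 6.88 ± 0.527 CPM in TNF and 4.50 ± 0.353 CPM in Control (log2 fold change 0.61 ± 0.11 SE, adjusted p = 0.00333). With limma on log2(TPM + 0.1) Sema6b was not called (adjusted p = 0.0577). Sema7a, which binds plexin-C1 and integrin beta-1, averaged 16.8 ± 0.904 CPM in TNF and 13.5 ± 0.762 CPM in Control (log2 fold change 0.32 ± 0.09 SE, adjusted p = 0.0259). That call was lost without TNF library 2, TNF library 3, Control library 1 or Control library 3, with adjusted p up to 0.0843, with library totals (0.235) and with limma on TPM (0.266 to 0.288). Sema6a (0.622 ± 0.148 CPM in TNF and 0.506 ± 0.121 CPM in Control) and Sema6c (7.0 ± 0.769 CPM in TNF and 7.28 ± 0.848 CPM in Control) were not called, with adjusted p = 0.515 and 0.751.

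Both neuropilins, the co-receptors of class 3 semaphorins and of VEGF, rose, where 16% of all genes tested did. Nrp2 was the most abundant of all 58 genes, at 320.6 ± 14.2 TPM in TNF and 188 ± 15.8 TPM in Control (SD, n = 3 each). Its CPM was 1109, 1285 and 1029.5 in TNF libraries and 641, 639.7 and 636 in Control libraries (log2 fold change 0.84 ± 0.12 SE, adjusted p = 0.000824), so the 3 Control values were nearly equal and all TNF values lay far above them. Nrp1 averaged 363 ± 24.6 CPM in TNF and 222 ± 24.2 CPM in Control (log2 fold change 0.71 ± 0.11 SE, adjusted p = 0.00145). Nrp2 held 66.4%, 70.9% and 67.7% of the neuropilin TPM in TNF and 65.2%, 68.7% and 64.9% in Control, and these shares overlapped between the groups.

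Plexins, the signalling receptors of semaphorins, gave 1 rise (12.5%) and 4 falls (50%) among 8 members. Over all genes tested the shares were 16% and 16.4%, so that of rises was near. Plxnd1, the receptor of semaphorin 3E and, with neuropilins, of semaphorin 3C, had 273, 226 and 277 CPM in TNF and 117, 109 and 119 CPM in Control (log2 fold change 1.17 ± 0.10 SE, adjusted p = 5.56e-05). The lowest value in TNF, that of library 2, was well above the highest in Control. Plxnd1 is best known from endothelial cells. Of their 10 markers the 4 listed summed to 1.59 to 2.12 CPM in TNF and 2.36 to 2.74 CPM in Control. Vwf and Kdr were called lower and Esam and Erg not called, and the part of these cells in the Plxnd1 result was not tested. Plxnc1, the semaphorin 7A receptor, had 9.47, 11.0 and 10.3 CPM in TNF and 29.2, 38.0 and 26.8 CPM in Control (log2 fold change -1.61 ± 0.14 SE, adjusted p = 4.94e-05), a 3.06-fold higher level in Control. Plxnc1 is also expressed by myeloid cells. Of 15 macrophage markers 3 were called higher and 6 lower, and their part in the fall of Plxnc1 was not tested.

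Of the plexin-A receptors, which signal for class 3 and class 6 semaphorins, 3 of 4 fell, where 16.4% of all genes tested did. Plxna2 averaged 43.6 ± 5.52 CPM in TNF and 79.6 ± 4.45 CPM in Control (log2 fold change -0.87 ± 0.11 SE, adjusted p = 0.000346), Plxna3 22.0 ± 0.534 CPM in TNF and 35.5 ± 2.02 CPM in Control (log2 fold change -0.69 ± 0.08 SE, adjusted p = 0.000251) and Plxna4 5.63 ± 1.05 CPM in TNF and 8.95 ± 0.887 CPM in Control (log2 fold change -0.67 ± 0.15 SE, adjusted p = 0.00973). Plxna1, the most abundant of them at 69.1 ± 0.811 TPM in TNF and 64.8 ± 1.84 TPM in Control, averaged 333 ± 25.7 CPM in TNF and 318 ± 14.5 CPM in Control and was not called (adjusted p = 0.627). Plxnb2, a class 4 receptor and the most abundant plexin, had 671, 643 and 726 CPM in TNF and 623, 719 and 640.1 CPM in Control, which overlap (log2 fold change 0.041 ± 0.11 SE, adjusted p = 0.796). Plxnb1, the receptor of semaphorin 4D, averaged 10.3 ± 1.30 CPM in TNF and 12.2 ± 2.06 CPM in Control (adjusted p = 0.225). Within the plexin TPM the share of Plxnd1 was 25.5%, 21.8% and 19.1% in TNF, against 9.99%, 10.0% and 10.7% in Control.

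**Figure D3:**
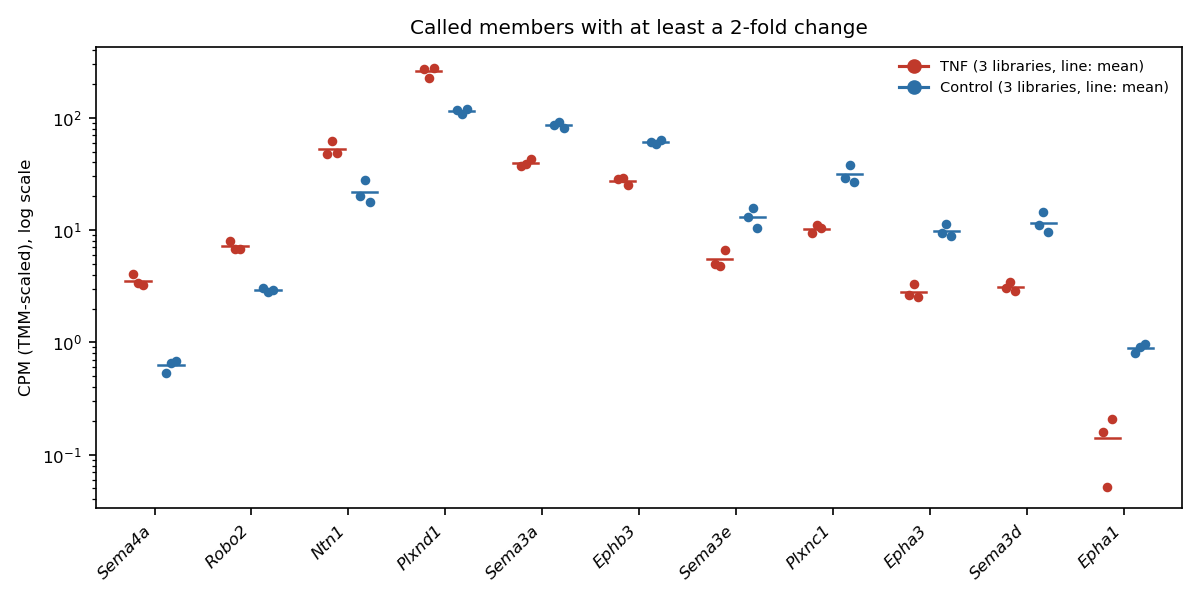
CPM (vertical axis, log scale) in each TNF (red) and Control (blue) library of the 11 called genes with at least a 2-fold change (horizontal axis); points are libraries and lines group means. Sema4a, Robo2, Ntn1 and Plxnd1 lie higher in TNF, and the other 7 lower, with no overlap between groups for any of the 11.

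Eph receptors fell in 6 of 9 genes (66.7%, against 16.4% of all genes tested) and rose in 0 (against 16%). Ephb6, the member without kinase activity, was the most abundant, with 71.6, 60.4 and 72.7 CPM in TNF and 132, 126 and 128 CPM in Control (log2 fold change -0.92 ± 0.09 SE, adjusted p = 0.000114). Ephb3, a kinase that binds ephrin-B ligands, had 28.5, 28.8 and 25.2 CPM in TNF and 60.5, 58.7 and 63.2 CPM in Control (log2 fold change -1.15 ± 0.08 SE, adjusted p = 1.70e-05). In both genes every TNF library was below every Control library by more than the spread within either group. Epha3, an ephrin-A receptor found on mesenchymal cells, had 2.67, 3.32 and 2.51 CPM in TNF and 9.34, 11.4 and 8.91 CPM in Control (log2 fold change -1.81 ± 0.15 SE, adjusted p = 3.48e-05). Epha1, an ephrin-A receptor best known from epithelia, had only 8, 2 and 12 counts in TNF libraries 1, 2 and 3, against 48, 69 and 55 counts in Control, which corresponds to 0.159, 0.0511 and 0.209 CPM in TNF and 0.806, 0.913 and 0.967 CPM in Control (log2 fold change -2.59 ± 0.38 SE, adjusted p = 0.00104). Neither Epha3 nor Epha1 overlapped between the groups. Every listed gene has at least 10 counts in at least 3 libraries, and Epha1 met that through Control, the group where it is high. Its fall and lack of overlap are therefore not independent of that bar. The direction of Epha1 was the same in all 6 comparisons that leave out 1 library, where the log2 fold change ran from -3.00 to -2.26. These repeats do not lift that limit.

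The other Eph receptors that fell were Epha2, at 20.6 ± 1.59 CPM in TNF and 38.4 ± 6.18 CPM in Control (log2 fold change -0.89 ± 0.12 SE, adjusted p = 0.000717), and Ephb2, at 10.9 ± 1.38 CPM in TNF and 20.9 ± 0.768 CPM in Control (log2 fold change -0.94 ± 0.11 SE, adjusted p = 0.000246). Ephb4, the partner of ephrin-B2 in vessels and bone, was not called (log2 fold change -0.035 ± 0.13 SE, adjusted p = 0.860), with 39.6, 37.3 and 40.3 CPM in TNF and 35.5, 49.3 and 35.2 CPM in Control. Control library 2 was the highest of these values, and without it the difference was 0.14 on the log2 scale (adjusted p = 0.192). Epha4, which binds ephrins of both classes, averaged 29.7 ± 4.46 CPM in TNF and 25.4 ± 2.51 CPM in Control (adjusted p = 0.204) and Epha7 2.32 ± 0.347 CPM in TNF and 2.26 ± 0.450 CPM in Control (adjusted p = 0.900). The summed TPM of all 9 receptors was 88.2, 68.8 and 85.9 in TNF libraries, against 148, 134 and 142 in Control libraries. Within it Ephb4 made up 18.1%, 18.8% and 18.7% in TNF and 10.2%, 13.6% and 10.2% in Control.

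Ephrins, the ligands of these receptors, fell in 3 of 8 genes (37.5%, against 16.4% of all genes tested) and rose in 0 (against 16%). Efnb2, a transmembrane ligand with its own signalling tail, averaged 50.4 ± 1.82 CPM in TNF and 94.3 ± 14.2 CPM in Control (log2 fold change -0.90 ± 0.11 SE, adjusted p = 0.000375). Efnb1, another transmembrane ephrin, linked to skull and bone development, was the most abundant of the 8, at 65.5 ± 5.03 TPM in TNF and 65.3 ± 11.6 TPM in Control. It had 130.0, 134 and 115 CPM in TNF and 122, 104 and 131 CPM in Control, which overlap (log2 fold change 0.087 ± 0.11 SE, adjusted p = 0.574). Among the GPI-anchored ephrin-A ligands, Efna5 averaged 24.8 ± 2.40 CPM in TNF and 38.6 ± 3.99 CPM in Control (log2 fold change -0.64 ± 0.11 SE, adjusted p = 0.00220) and Efna3 2.18 ± 0.466 CPM in TNF and 3.22 ± 0.158 CPM in Control (log2 fold change -0.56 ± 0.17 SE, adjusted p = 0.0383). The Efna3 call was lost without TNF library 2, TNF library 3, Control library 1, Control library 2 or Control library 3, with adjusted p up to 0.0821, and with limma on TPM (0.225 to 0.258).

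Efna1 (4.25 ± 0.234 CPM in TNF and 4.70 ± 0.114 CPM in Control), Efna2 (9.11 ± 0.906 CPM in TNF and 7.23 ± 0.879 CPM in Control), Efna4 (13.3 ± 1.15 CPM in TNF and 15.6 ± 2.16 CPM in Control) and Efnb3 (0.254 ± 0.0713 CPM in TNF and 0.309 ± 0.0155 CPM in Control) were not called, with adjusted p = 0.321, 0.0722, 0.184 and 0.509. Efna4 was called lower without Control library 2 (log2 fold change -0.33, adjusted p = 0.0461). Efna1, Efna3 and Efna4 are neighbours on chromosome 3, and of them only Efna3 was called.

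**Figure D4:**
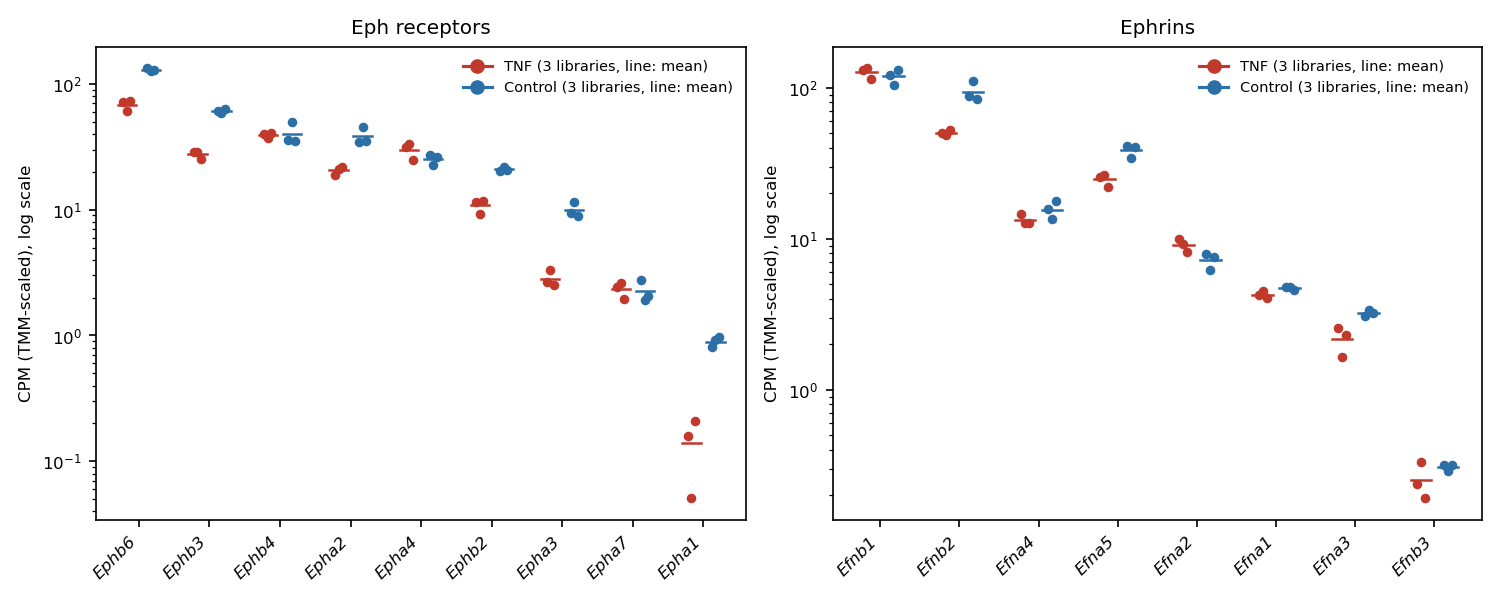
CPM (vertical axes, log scale) of the 9 Eph receptors (left) and 8 ephrins (right) in each TNF (red) and Control (blue) library, ordered by TPM; points are libraries and lines group means. The groups are apart for Ephb6, Ephb3, Epha2, Ephb2, Epha3 and Epha1 among receptors, with TNF lower, and overlap for Efnb1, the leading ephrin.

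Netrins, secreted cues related to laminins, rose in 2 of 3 genes, where 16% of all genes tested did. Ntn1, which attracts or repels cells through Dcc, neogenin or Unc5 receptors, had 47.6, 62.1 and 48.5 CPM in TNF and 20.3, 27.7 and 17.9 CPM in Control (log2 fold change 1.26 ± 0.17 SE, adjusted p = 0.000668). Library 2 was the highest in both groups, and the groups did not overlap. Ntn4, a netrin of basement membranes, averaged 15.4 ± 0.809 CPM in TNF and 12.5 ± 0.625 CPM in Control (log2 fold change 0.30 ± 0.09 SE, adjusted p = 0.0299). Its call was lost without TNF library 1, TNF library 3, Control library 1, Control library 2 or Control library 3, with adjusted p up to 0.118, with library totals (0.304) and with limma on TPM (0.342 to 0.371). Ntn3 averaged 1.86 ± 0.465 CPM in TNF and 2.24 ± 0.524 CPM in Control (adjusted p = 0.449).

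Of the Unc5 receptors, which mediate repulsion by netrin-1, 0 of 3 were called, against 32.4% of all genes tested. Unc5b, the most abundant, had 146, 163 and 142 CPM in TNF and 165, 159.7 and 163 CPM in Control (log2 fold change -0.11 ± 0.09 SE, adjusted p = 0.348). Unc5c averaged 22.5 ± 3.07 CPM in TNF and 22.4 ± 0.629 CPM in Control (adjusted p = 0.981) and Unc5a 4.64 ± 0.474 CPM in TNF and 4.6 ± 0.524 CPM in Control (adjusted p = 0.951). In all 3 genes the groups overlapped.

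The Robo receptors and their Slit ligands differed in their calls. Robo1, a Slit receptor expressed well beyond the nervous system, had 56.7, 65.3 and 59.3 CPM in TNF and 29.2, 39.8 and 27.5 CPM in Control (log2 fold change 0.91 ± 0.14 SE, adjusted p = 0.00132). Robo2, a Slit receptor best known from kidney development and axon guidance, had 8.0, 6.79 and 6.77 CPM in TNF and 3.06, 2.83 and 2.94 CPM in Control (log2 fold change 1.29 ± 0.12 SE, adjusted p = 5.87e-05). For both receptors each TNF library exceeded each Control library. The pair are neighbours on chromosome 16 with no other protein-coding gene between them in RefSeq. Robo3 averaged 0.645 ± 0.0805 CPM in TNF and 0.437 ± 0.0331 CPM in Control with 23 to 41 counts per library, and was not called (adjusted p = 0.119).

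Among the ligands, 0 of 3 Slits were called by edgeR's test, against 32.4% of all genes tested, and Slit3 was by DESeq2. Slit2 had 59.7, 69.9 and 61.4 CPM in TNF and 52.4, 63.1 and 48.2 CPM in Control, which overlap (log2 fold change 0.22 ± 0.12 SE, adjusted p = 0.179). Without Control library 2 it was called higher (log2 fold change 0.34, adjusted p = 0.0284). Slit3, which is made in bone and acts on vessels there, averaged 28.5 ± 0.105 CPM in TNF and 38.0 ± 8.84 CPM in Control (log2 fold change -0.42 ± 0.15 SE, adjusted p = 0.0602), and was not called. It was called lower without Control library 3 (log2 fold change -0.51, adjusted p = 0.0363), with library totals (0.0243), with DESeq2 (0.0360) and with limma at 1 TPM or more (0.0391). Slit1 averaged 2.77 ± 0.360 CPM in TNF and 3.82 ± 0.745 CPM in Control (adjusted p = 0.0749). Calls of Robo1 and Robo2 and their absence in Slits do not show that the families responded differently, since that difference was not tested.

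A list of 75 other genes of the same pathways held 70 that were tested, and 17 of these rose and 17 fell, or 24.3% each way. Over all genes tested the shares called were 16% higher and 16.4% lower. Without TNF library 1 the pathway counts were 10 and 13, beside 1721 higher and 1728 lower calls among all 15604 genes tested. Dcc, Dscaml1, Ntng1, Timd2 and Dpysl5 had no row. Of the other receptors and ligands 6 of 21 rose (28.6%) and 9 fell (42.9%). Of the cytoplasmic signalling genes 10 of 44 rose (22.7%) and 8 fell (18.2%), a share of falls near that over all genes. Of the genes for shedding and cleavage 1 of 5 rose (20%), near the share over all genes. It was Adam17, at 129 ± 2.53 CPM in TNF and 61.6 ± 8.53 CPM in Control. Rnd1, a small GTPase that binds the cytoplasmic part of plexins, had 318, 301 and 247 CPM in TNF and 19.2, 17 and 16.7 CPM in Control (log2 fold change 4.03 ± 0.13 SE, adjusted p = 3.01e-07), a 16.4-fold higher level in TNF with no overlap. Vegfc, a growth factor of the VEGF family that binds neuropilin-2, averaged 13.1 ± 0.666 CPM in TNF and 4.27 ± 0.330 CPM in Control (log2 fold change 1.62 ± 0.10 SE, adjusted p = 6.37e-06).

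Those with the smallest adjusted p among the falls were Cd72, Nrcam and Mical2. Cd72, a receptor of semaphorin 4D on B cells and macrophages, averaged 12.7 ± 0.531 CPM in TNF and 33.0 ± 2.94 CPM in Control (log2 fold change -1.37 ± 0.09 SE, adjusted p = 1.19e-05). Of 15 macrophage markers 3 were called higher and 6 lower, and their part in the fall of Cd72 was not tested. Nrcam, a cell adhesion protein that joins semaphorin receptor complexes, averaged 9.35 ± 1.04 CPM in TNF and 25.6 ± 3.37 CPM in Control (log2 fold change -1.45 ± 0.13 SE, adjusted p = 4.97e-05). Mical2, an oxidase that takes actin filaments apart, averaged 97.3 ± 3.70 CPM in TNF and 168 ± 2.46 CPM in Control (log2 fold change -0.79 ± 0.08 SE, adjusted p = 9.29e-05). Neo1 (neogenin), a netrin receptor, averaged 127 ± 5.59 CPM in TNF and 139 ± 10.2 CPM in Control and was not called (adjusted p = 0.257).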

How the data were processed

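RNA of mouse MSCs was sequenced as 3 TNF and 3 Control libraries made with a stranded kit, per the labels' protocols. Whether counting used strand is not given in the sources used here. Trim Galore, STAR, StringTie, Salmon and build GRCm39 are named, without versions or settings, per the submitters' processing notes. The authors deposited expected counts per gene, as whole numbers, and TPM values. The count files' title line calls the values normalized and the column name raw; totals differed between libraries, so they were treated as raw estimated counts. Genes that are near-identical or overlap could share reads.

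Counts were fitted with edgeR 4.0.16 (filterByExpr, TMM, quasi-likelihood test, R 4.3.3), and p-values were adjusted by Benjamini-Hochberg over 15547 genes. SE is the absolute log2 fold change over the root of the F statistic. DESeq2 1.42.0, limma 3.58.1 on log2(TPM + pseudocount) and other alternatives are described in the closing section. Counts were simulated with the depth of the TNF and Control libraries and 200 genes set to change (15336 genes fitted). Of genes changed 1.5-fold 50% were called, 80% at 2-fold and 96.9% at 4-fold, with 7 of 15140 unchanged genes called. In the data 5039 of 15547 genes were called, and the Benjamini-Hochberg cut-off on p is stricter when fewer genes change. These shares are thus not the recovery to expect in the data. Depth sets only the counting error, so the lowest genes, such as Epha1, are least precise.

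The genes and lists were chosen with earlier results of these data known. Values in every library are given for each called gene of at least 2-fold and for the gene of highest TPM in each family, and of the pathway list the 3 called genes of smallest adjusted p in each direction are named, except 1 that is not reported here. Other pathway genes named (Adam17 and Neo1) were chosen after their values were seen. Promoter sequences are RefSeq windows on GRCm38.p6, of 300 bases, matched by symbol for 50 of the 58 genes. That build is not the one used for counting, so windows are not tied to the transcripts counted.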

Additional observations from a re-analysis of the deposited data

How the results depend on the processing

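Of the 58 axon guidance genes, 13 were called higher and 20 lower in TNF; the counts were 13 and 20 with RLE size factors or no filter on low counts, 14 and 21 with DESeq2, 10 and 21 with library totals, 12 and 16 of 43 tested at 5 CPM or more in 3 libraries, 11 and 17 at an adjusted p under 0.01, and 10 and 19, 9 and 19, and 10 and 17 with limma on log2(TPM + 1), on log2(TPM + 0.1) and at 1 TPM or more (50 tested). Leaving out 1 library gave 11 to 14 higher and 18 to 20 lower, and leaving out both libraries numbered 2 gave 15 and 18. Over all genes the higher and lower calls were 2489 and 2550, and 2790 and 2728 with DESeq2. They were 1612 and 2571 with library totals and 1587 and 1534 at an adjusted p under 0.01. The limma settings in the same order gave 1477 and 2187, 1470 and 2163, and 1356 and 1982. Without 1 library the ranges over all genes were 1721 to 2413 and 1728 to 2382. Of the 33 called genes 0 changed sign in any of these, and 27 were called in all 6 repeats that leave out 1 library. Over all genes, 38.5% of calls were higher with library totals and 40.3% to 40.6% with limma, against 49.4% with TMM factors; library totals put the median log2 fold change of all genes at -0.0866. On the log2(TPM + 1) scale, which understates the change of low genes, the values of several called genes were smaller by over 1.5 times. Among these, Sema4a (1.16), Epha1 (-0.60), Sema3d (-1.22) and Plxna4 (-0.35) were still called, while Efna3 (-0.35) and Ntn4 (0.19) were not. The loss of these 2 calls was not particular to that scale. On log2(TPM + 0.1), limma did not call Efna3 (adjusted p = 0.258) or Ntn4 (0.370) either. The log2 fold change of Ntn4 was 0.22 there and 0.22 with library totals.

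Of the other pathway genes, 17 were called higher and 17 lower. The higher count was 11 with library totals, 8, 8 and 9 with the limma settings in the order above, 10 at an adjusted p under 0.01 and 10 to 18 when 1 library was left out, the lowest without TNF library 1. The lower count was 11 with limma at 1 TPM or more and 11 at an adjusted p under 0.01. Over all genes these settings also gave fewer calls in the same direction, as listed above.

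Whether libraries with the same number belong together is not stated. Deviations of same-numbered libraries from their group means correlated at -0.0125, -0.304 and -0.222, and those of differently numbered ones at -0.23 to 0.356. Deviations from a mean of 3 libraries constrain each other, so these values cannot settle a pairing. With the replicate block 12 axon guidance genes were higher and 19 lower, Efna3 (adjusted p = 0.0796), Ntn4 (0.0601) and Sema7a (0.0696) were no longer called, and Sema4d was (0.0323). Over all genes the block gave 1987 higher and 1993 lower calls, against 2489 and 2550.

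Signs reversed only for 9 genes that were not called. With library totals the log2 fold change was -0.0055 for Efnb1, -0.057 for Epha7, -0.021 for Plxna1, -0.033 for Plxnb2, -0.056 for Unc5a and -0.0899 for Unc5c. With limma at pseudocount 1, pseudocount 0.1 and 1 TPM or more, it was -0.0425, -0.0427 and -0.0425 for Plxnb2, -0.0107, -0.0204 and -0.0107 for Unc5a and -0.15, -0.18 and -0.15 for Unc5c, and in the first pair -0.0554 and -0.0875 for Epha7. Unc5c was at -0.0086 with the 5 CPM filter and -0.0024 with the block. Without both libraries numbered 2, Efnb1 was at -0.0392, Epha7 at -0.15, Ephb4 at 0.18 and Unc5c at -0.0847. Leaving out 1 library gave ranges of -0.0025 to 0.17 (Efnb1), -0.0685 to 0.21 (Epha7), -0.11 to 0.14 (Ephb4), -0.0077 to 0.11 (Plxnb2), -0.12 to 0.12 (Sema4g), -0.14 to 0.0482 (Sema6c), -0.0499 to 0.11 (Unc5a) and -0.11 to 0.0795 (Unc5c). The cause of these changes was not tested.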
